A study of Homo sapiens with 2 samples.

Results

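The genes that write, copy, remove and locally protect DNA methylation were examined in the pair of substates of H9 cells, an established human embryonic stem cell line. They comprised 10 genes, namely DNMT1, DNMT3A, DNMT3B, DNMT3L, TET1, TET2, TET3, UHRF1, ZFP57 and TRIM28, out of 22439 genes that could be named on the array. ZFP57 was chosen by its measured difference, a lower signal in substate 2 than in substate 1, and the others were chosen for their function, so the values of ZFP57 are a description. A probe belonged to a gene if the RefSeq accession of the array design mapped to it, which gave 19 probes. Of these, 15 probes of 9 genes were well above background on both arrays, 4 were near background on both, and 0 were measured on a single array.

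The paper characterised both substates in H9 cells grown on Matrigel, a matrix preparation rich in basement membrane proteins, in TeSR-E8 medium. Cells had been kept on vitronectin, another matrix, and were moved to Matrigel at passage 35. The paper's methods do not name the matrix of either array sample. Substate 1 cells (passage 35) formed colonies of typical shape with strong staining for the R-10G keratan sulphate epitope and almost no vimentin, and substate 2 cells (passage 50) formed loose colonies that stained weakly for R-10G and were positive for vimentin. One array was hybridised per substate with RNA of many cells. Substate, passage and any difference in matrix therefore cannot be told apart. Fewer cells with a transcript likewise cannot be told apart from less of it per cell. Both groups come from a single cell line, and either kind of sorted cell is able to form both kinds of colony on further culture. How the cells were separated for the array RNA is not given in the sources used here.

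No value has a replicate check and no test between the substates was possible. Each probe is therefore given with its processed signal on each array and with its log2 signal relative to the 75th percentile of the same array. The error after ± is that which the scanner software assigned to the spot, and it covers the array but neither the cells nor the labelling. The median of this error for a difference between arrays was 0.21 on the log2 scale over the 29883 probes measured on both. A Z-score sets a difference, substate 2 minus substate 1, against the mean (0.07) and SD (0.63) of all 58201 probes, with limits of 2 either way.

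The labelled cell type was checked first. All 8 pluripotency markers were measured on both arrays, with a median difference of 0.12 and a summed signal of 303971 in substate 1 and 267076 in substate 2. These sums are not scaled, and the 75th percentile of the array was likewise lower in substate 2 (275, against 314). Among the pluripotency markers, CRIPTO differed by -0.46 ± 0.20, NANOG by 0.42 ± 0.20, PODXL by -0.35 ± 0.20 and POU5F1 by 0.27 ± 0.14. Among 7 neural ectoderm markers, 3 were measured on both arrays, POU3F2 and SOX1 in substate 2 only and the remaining 2 on neither, and their summed signal was 4575 and 5857. POU3F2 was at least 13.3-fold and SOX1 at least 1.71-fold higher in substate 2, and MAP2 differed by 1.03 ± 0.20, OTX1 by -0.89 ± 0.22 and NES by 0.38 ± 0.14. Among 7 mesoderm and endoderm markers, TBXT, MIXL1, EOMES, SOX17 and GATA6 were near background on both arrays. FOXA2 was measured on both, with signals of 44.6 and 66.9 (0.77 ± 0.25), and of 3 GATA4 probes 1 was above background, in substate 1 only. Among 7 fibroblast markers, COL3A1, DCN and LUM were near background on both, and the other 4 were measured on both. COL1A2 differed by -0.50 ± 0.07, COL1A1 by -0.49 ± 0.20, PDGFRB by 0.21 ± 0.15 and THY1 by -0.11 ± 0.20. THY1 was bright, with a signal of 48200 in substate 1 and 39200 in substate 2, and COL1A2 had 3200 and 1990. Whether these signals come from fibroblasts or from the H9 cells themselves was not tested. The part of these marker differences in the results below was not tested.

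DNA methylation of cytosines that precede guanines is set up by the de novo enzymes DNMT3A and DNMT3B, with DNMT3L as a catalytically inactive partner. It is copied after replication by DNMT1, which UHRF1 brings to hemimethylated DNA. The TET enzymes oxidise 5-methylcytosine and so start its removal. ZFP57 is a KRAB zinc finger protein that binds methylated imprinting control regions and recruits the corepressor TRIM28 (KAP1), which keeps their methylation through the wave of demethylation in the early embryo. Human pluripotent stem cells are known for strong expression of DNMT3B and TET1.

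Most of these genes differed little between the substates, and 2 stood apart. ZFP57 was 4.41-fold lower in substate 2, and both probes of UHRF1 were 2.03-fold and 2.09-fold higher. Under normexp background correction the difference of ZFP57 was -0.77 in place of -2.14, which ends its 2-fold call, and neither UHRF1 probe reached 2-fold. By Z-score, 0 member probes lay above the upper limit, where 3.03% of all probes did, and 1 of 19 lay below the lower limit, where 3.3% of all probes did. By a limit of 2-fold among probes measured on at least 1 array, 2 of the 15 measured member probes were higher in substate 2 (13.3%, against 1.55% of all such probes) and 1 was lower (6.67%, against 1.67%). The 2 higher probes were both of UHRF1, so by gene they count as 1 of the 9 measured, beside 0.931% of all measured genes. Among the 29883 probes measured on both arrays, 0.85% were 2-fold higher and 1.26% were 2-fold lower, 0.977% lay past a Z-score limit either way and 0.622% lay past the lower one. The call of ZFP57 was fixed by its choice. The other 12 measured probes, of 7 genes, differed by -0.07 to 0.49, and 10 of them were above 0. Their median was 0.13, beside 0.06 over all measured probes, of which 56.0% were above 0.

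**Figure D1:**
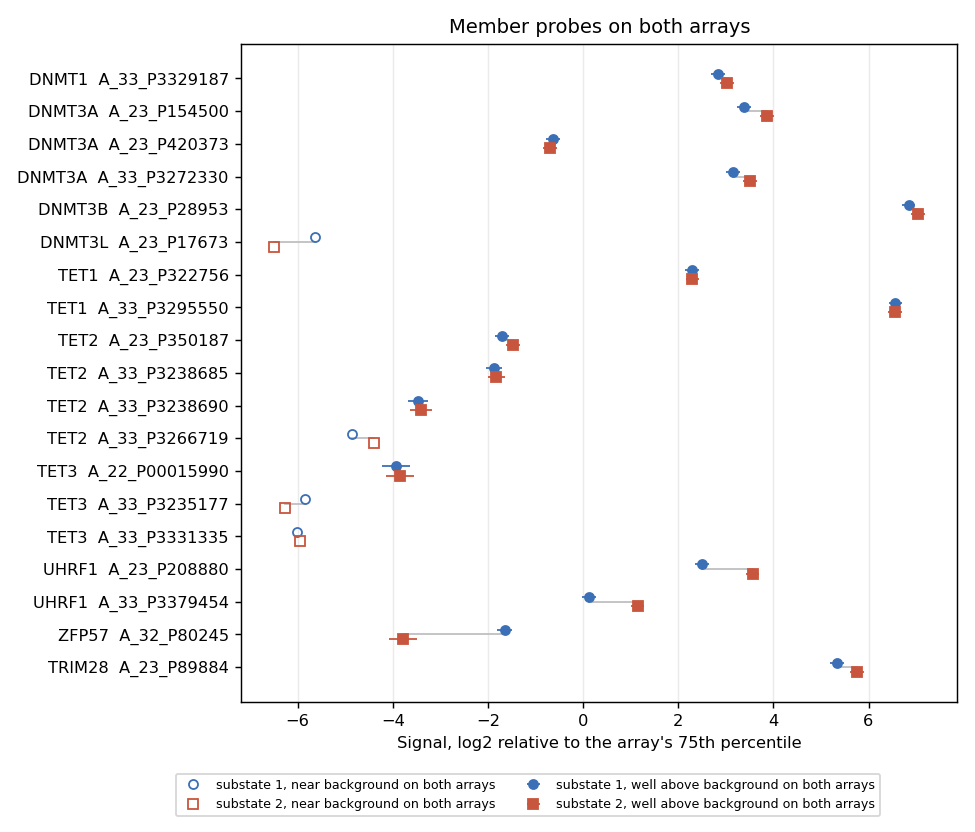
Log2 signal relative to the 75th percentile of the array (horizontal axis) for each of the 19 member probes, with circles for substate 1 and squares for substate 2; filled symbols were well above background, open symbols were not, and the bars on filled symbols are the scanner error. Levels of different probes are not comparable, and the pairs lie far apart for ZFP57 and for both UHRF1 probes.

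Set against their own errors, 8 of the 15 probes (53.3%) differed by no more than 1 scanner error, against 45.5% of all measured probes. A further 5 (33.3%, against 20.7% of all measured probes) differed by more than 2 errors. These were the probe of ZFP57, both probes of UHRF1, 1 probe of DNMT3A and the probe of TRIM28. ZFP57 was chosen for its fall, so its place among them was fixed by that choice, and the UHRF1 probes stand for 1 gene. Where a gene had several measured probes, 6 of the 8 pairs of probes gave differences within 1 error of each other.

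**Figure D2:**
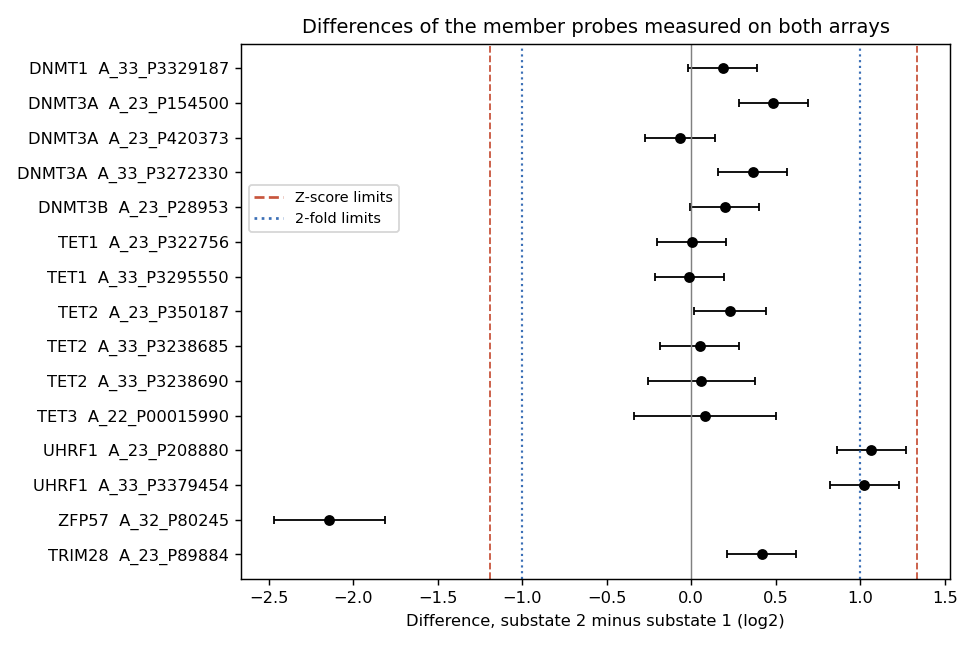
Difference in log2 signal, substate 2 minus substate 1, of the 15 member probes measured on both arrays, with bars for the scanner error of the difference; dashed lines are the Z-score limits (-1.19 and 1.34) and dotted lines the 2-fold limits. ZFP57 lies past both lower limits, the UHRF1 probes lie between the upper 2-fold and Z-score limits, and the other probes lie inside all limits.

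ZFP57, on chromosome 6, was represented by 1 probe, A_32_P80245 (NM_001109809). Its processed signal was 99.8 in substate 1 and 19.9 in substate 2. The spot itself read a median of 146 over a local background of 38 on the substate 1 array, and 76 over 39 on the substate 2 array. The log2 signal was -1.65 ± 0.15 in substate 1 and -3.79 ± 0.29 in substate 2, a difference of -2.14 ± 0.33 with a Z-score of -3.50. The substate 2 value was close to the detection limit. The lowest signal called well above background on that array was 15.0, and only 2.59% of the probes above background were dimmer than ZFP57, compared with 35.8% on the substate 1 array.

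The fall of ZFP57, by which it was chosen, was large among all genes as well as within its class. Its ranks follow from that choice and are a description only. Of all probes measured on both arrays, 0.0201% differed by as much downward, itself included. Of 16001 genes measured on both arrays, 4 had a lower mean difference, and 121 did under normexp correction. Among the 488 genes named ZNF or ZFP that were measured on both arrays, ZFP57 ranked 1 from the lowest. The median of this class was 0.02. Of its 488 genes, 5 were 2-fold or more lower, ZFP57 included, and 0 were 2-fold or more higher. Over all 16001 measured genes, 1.07% were lower and 0.931% higher by 2-fold. Those nearest to ZFP57 in difference were ZNF667-AS1 (-1.54 ± 0.36), ZNF502 (-1.21 ± 0.21) and ZNF790-AS1 (-1.03 ± 0.21), each with 1 probe, and the first and last of these are antisense transcripts. As only 2 arrays exist, this likeness is a matter of size alone.

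The spots and genes around ZFP57 did not share its difference. The 238 measured spots within 10 rows and columns of the ZFP57 spot had a median difference of 0.02, and neither array marked the spot as an outlier. Of 16 genes near ZFP57 in the 6p22 region, which holds the HLA class I genes, 9 were measured on both arrays. Their differences ran from -0.23 (HLA-F) to 0.40 (PPP1R11) with a median of -0.05, and 0 passed 2-fold. Over all measured genes, 0.931% were 2-fold higher and 1.07% were 2-fold lower. TRIM26 and TRIM10, of the tripartite motif family, differed by 0.34 ± 0.20 and -0.20 ± 0.22. UBD was measured in substate 1 only and MAS1L in substate 2 only (at least 1.30-fold higher), and both were named after their values were seen.

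The promoter of ZFP57 is shown as the start region of the member with the largest difference. It was taken from RefSeq (GRCh38.p14, chr6:29681103-29681402, minus strand), runs from 250 bases before to 50 bases after the transcription start, and has its 20 CpG sites in capitals.
ZFP57: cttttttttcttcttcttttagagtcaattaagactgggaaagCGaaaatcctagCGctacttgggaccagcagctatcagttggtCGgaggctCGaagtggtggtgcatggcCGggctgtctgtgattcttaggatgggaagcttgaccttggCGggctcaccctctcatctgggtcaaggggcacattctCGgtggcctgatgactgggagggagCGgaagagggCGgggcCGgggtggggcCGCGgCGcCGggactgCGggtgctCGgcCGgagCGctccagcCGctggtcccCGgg
The CpG sites crowd toward the start site at the right end of the sequence. The promoters of this length in RefSeq had a median of 14 CpG sites, and 58.8% of them had fewer than ZFP57. The arrays do not measure methylation, so these sites are given as sequence only.

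TRIM28, on chromosome 19, encodes the corepressor to which ZFP57 and other KRAB zinc finger proteins bind. Its probe A_23_P89884 had a signal of 12746 in substate 1 and 14941 in substate 2. The log2 signal was 5.34 ± 0.14 and 5.76 ± 0.14, a difference of 0.42 ± 0.20 (1.34-fold). ZFP57 and TRIM28 thus differed in opposite directions, with TRIM28 inside the limits. Under normexp background correction the difference of TRIM28 was 0.21.

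The partners of TRIM28 in silencing were also inside the limits. All 12 genes of this list were measured on both arrays, with a median of 0.04. Of these, 8 were above 0 (66.7%, against 59.8% of all measured genes). In either direction 0 passed 2-fold, where 0.931% of all measured genes were higher and 1.07% lower. SETDB1, the histone H3 lysine 9 methyltransferase recruited by TRIM28, differed by 0.06 ± 0.12 and was named after its value was seen. The heterochromatin proteins CBX1 and CBX5 differed by 0.45 ± 0.12 and 0.31 ± 0.14. ZNF445, a further zinc finger protein that protects imprints, differed by -0.33 ± 0.20, and the modifier SUMO2 by 0.31 ± 0.12.

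UHRF1, on chromosome 19, had 2 probes on different RefSeq transcripts. Probe A_23_P208880 (NM_013282) had a signal of 1772 in substate 1 and 3253 in substate 2. Its log2 signal was 2.50 ± 0.14 and 3.56 ± 0.14, a difference of 1.06 ± 0.20 with a Z-score of 1.57. The other probe, A_33_P3379454 (NM_001290050), had a signal of 341 and 609. Its log2 signal was 0.12 ± 0.14 and 1.14 ± 0.14, a difference of 1.02 ± 0.20 with a Z-score of 1.5. Both probes were thus brighter in substate 2 by nearly the same amount, with a gap between their differences of 0.04 ± 0.29.

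The mean difference of UHRF1 was 1.04 ± 0.14, and 131 of the 16001 measured genes had a higher one. Of all probes measured on both arrays, 0.79% differed by at least as much as the lower UHRF1 probe. Measured spots around the UHRF1 spots had median differences of 0.08 (197 spots) and 0.06 (227 spots). The 2-fold limit lay within the error of both probes, and the probes fell to 0.96 and 0.99 after loess centring and to 0.95 and 0.90 under normexp correction, which ends the 2-fold call while the direction stays. UHRF1 was inside the Z-score limits as first given, and past the upper one under normexp correction, with Z-scores of 3.70 and 3.48. With the mean and SD of the probes measured on both arrays alone, the Z-scores were 2.62 and 2.52.

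UHRF1 is best known as a gene of proliferating cells that is induced with S phase, so the S phase and proliferation list was set beside it. Of its 22 genes, 22 were measured on both arrays and 21 were above 0 (95.5%, against 59.8% of all measured genes). The median was 0.36, beside 0.08 over all measured genes. None passed 2-fold, where 0.931% of all measured genes were higher and 1.07% lower. The largest differences were those of TYMS (0.69 ± 0.20), which makes thymidylate, CDC6 (0.65 ± 0.22), which licenses replication origins, RRM2 (0.54 ± 0.20), a subunit of ribonucleotide reductase, and MCM2 (0.53 ± 0.20), a subunit of the replicative helicase. The difference of UHRF1 was above the highest of this list. MKI67, a marker of cycling cells, was the 1 gene below 0, at -0.10 ± 0.12, and was named after its value was seen. The part of proliferation in the difference of UHRF1 was not tested.

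The genes that work with UHRF1 and DNMT1 in copying methylation stayed inside the 2-fold limits. Of 9 such genes, 8 were measured on both arrays, with a median of 0.17. All 8 were above 0, as were 59.8% of all measured genes. Past 2-fold lay 0, against 0.931% of all measured genes upward and 1.07% downward. EHMT2, a histone H3 lysine 9 methyltransferase, differed by 0.45 ± 0.20, PCNA, the replication clamp, by 0.37 ± 0.14, LIG1, the DNA ligase of the lagging strand, by 0.26 ± 0.20, and EHMT1 by 0.18 ± 0.12. HELLS and CDCA7, which remodel nucleosomes for maintenance methylation, differed by 0.04 and 0.13, and the UHRF1 deubiquitinase USP7 by 0.01. These last 3 were named after their values were seen.

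The start regions of UHRF1 and DNMT1 are shown because both genes act in the same step while only UHRF1 passed 2-fold. They were searched on both strands for the letters TTTCCCGC, TTTCGCGC, TTTGGCGC and TTTGCCGC, which spell the consensus of E2F, the family of factors that drives S phase genes. Matches are in capitals. The search was chosen after the values were seen. The sequences are from RefSeq (GRCh38.p14), with UHRF1 start a at chr19:4909251-4909550 (plus strand), UHRF1 start b at chr19:4909894-4910193 (plus strand) and DNMT1 at chr19:10194904-10195203 (minus strand).
UHRF1 start a: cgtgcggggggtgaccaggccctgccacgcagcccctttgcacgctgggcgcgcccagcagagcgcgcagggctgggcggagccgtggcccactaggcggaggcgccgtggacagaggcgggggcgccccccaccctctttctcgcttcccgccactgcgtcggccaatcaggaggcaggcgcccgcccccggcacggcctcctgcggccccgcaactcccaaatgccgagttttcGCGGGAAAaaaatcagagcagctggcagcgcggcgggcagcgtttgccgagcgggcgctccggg
UHRF1 start b: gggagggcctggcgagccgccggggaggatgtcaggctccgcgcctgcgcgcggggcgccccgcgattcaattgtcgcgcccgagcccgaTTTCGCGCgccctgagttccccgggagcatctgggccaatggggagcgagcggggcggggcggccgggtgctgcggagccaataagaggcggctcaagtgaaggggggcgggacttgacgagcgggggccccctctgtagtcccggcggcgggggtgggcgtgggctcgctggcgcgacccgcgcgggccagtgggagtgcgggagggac
DNMT1: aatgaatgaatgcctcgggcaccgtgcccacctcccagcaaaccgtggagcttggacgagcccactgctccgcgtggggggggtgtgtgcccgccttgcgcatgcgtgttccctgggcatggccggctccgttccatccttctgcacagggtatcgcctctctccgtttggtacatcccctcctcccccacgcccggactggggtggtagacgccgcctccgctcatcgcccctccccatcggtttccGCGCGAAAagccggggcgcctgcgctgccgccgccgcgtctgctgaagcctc
Each of these promoters held 1 match, and the remaining UHRF1 start region in the table held none. Of 35116 promoters of this length, 3.31% had a match, as did 3 of the 19 promoters available for 8 member genes and 11 of 25 promoters of the S phase list (44.0%). Whether these matches bear on the difference of either gene was not tested.

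DNMT1, the maintenance methyltransferase, is on chromosome 19 and had 1 probe, A_33_P3329187 (NM_001130823). Its signal was 2242 in substate 1 and 2241 in substate 2. The log2 signal was 2.84 ± 0.14 and 3.02 ± 0.14, a difference of 0.19 ± 0.20. The raw signals were thus almost equal, and the difference arose from the lower 75th percentile of the substate 2 array (275, against 314).

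DNMT3B, the de novo enzyme typical of pluripotent cells, had 1 probe, A_23_P28953 (NM_175850), with a signal of 35990 in substate 1 and 36267 in substate 2. The log2 signal was 6.84 ± 0.14 and 7.04 ± 0.14, a difference of 0.20 ± 0.20. Across the ways of processing tried, this difference ran from 0.004 to 0.24. DNMT3B lies in 20q11.21, a region often gained in stem cell culture. The median of 19 measured genes near it there was 0.22, with 15 above 0 and 1 past 2-fold upward, FOXS1 (2.30 ± 0.22). Over all measured genes the median was 0.08, 59.8% were above 0 and 0.931% were 2-fold higher. ASXL1 differed by 0.75 ± 0.21, ID1 by 0.47 ± 0.20 and PDRG1 by 0.43 ± 0.20. DNMT3B was therefore close to the median of its neighbours.

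DNMT3A, on chromosome 2, had 3 probes that did not move alike. Probe A_23_P154500 (NM_175629) had a signal of 3268 in substate 1 and 4018 in substate 2, and the difference was 0.49 ± 0.20. Probe A_33_P3272330, on the same transcript, had 2773 and 3134, a difference of 0.36 ± 0.20. Probe A_23_P420373 (NM_175630), on another transcript of the gene, had 202 and 169, a difference of -0.07 ± 0.21. The first and last of these were 0.55 ± 0.29 apart. The mean over the probes was 0.26 ± 0.12.

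DNMT3L, the inactive partner of DNMT3A and DNMT3B, was near background on both arrays. Its probe A_23_P17673 had a signal of 6.32 in substate 1 and 3.05 in substate 2, and neither spot was well above background, so no fold is given. Its Z-score of -1.48 comes from these near-background spots, with an error of 1.61 on the log2 difference, and is not read further. Among the measured probes inside the limits, a DNMT3A probe (-0.22) was nearest to the lower one and the brighter UHRF1 probe (1.57) to the upper one, and ZFP57 (-3.50) was the member outside them.

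The TET enzymes were level. TET1, the main dioxygenase of pluripotent cells, had probes A_33_P3295550, with a signal of 29721 in substate 1 and 25887 in substate 2, and A_23_P322756, with 1541 and 1354. The differences were -0.01 ± 0.20 and 0.00 ± 0.20 after scaling, and the sign of the mean turned after centring on the median. For TET2, 3 of 4 probes were measured. Their signals were 96.2 and 99.0 for A_23_P350187, 85.7 and 77.9 for A_33_P3238685, and 28.4 and 26.0 for A_33_P3238690, in substate 1 and substate 2. The differences were 0.23 ± 0.21, 0.05 ± 0.23 and 0.06 ± 0.32, all of them near their errors or below. The other TET2 probe, A_33_P3266719 (NM_017628), was near background with 10.7 and 13.0.

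TET3, which acts in the zygote and in neurons, was at the edge of detection. Of its 3 probes, A_22_P00015990 was measured, with a signal of 20.6 in substate 1 and 19.1 in substate 2 and differed by 0.08 ± 0.42. The others, A_33_P3235177 and A_33_P3331335, were near background with 5.48 and 4.84 in substate 1 and 3.59 and 4.44 in substate 2. A difference of the size seen for UHRF1 would have exceeded the error of the measured TET3 probe, whereas a small one was not detectable at this signal.

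**Figure D3:**
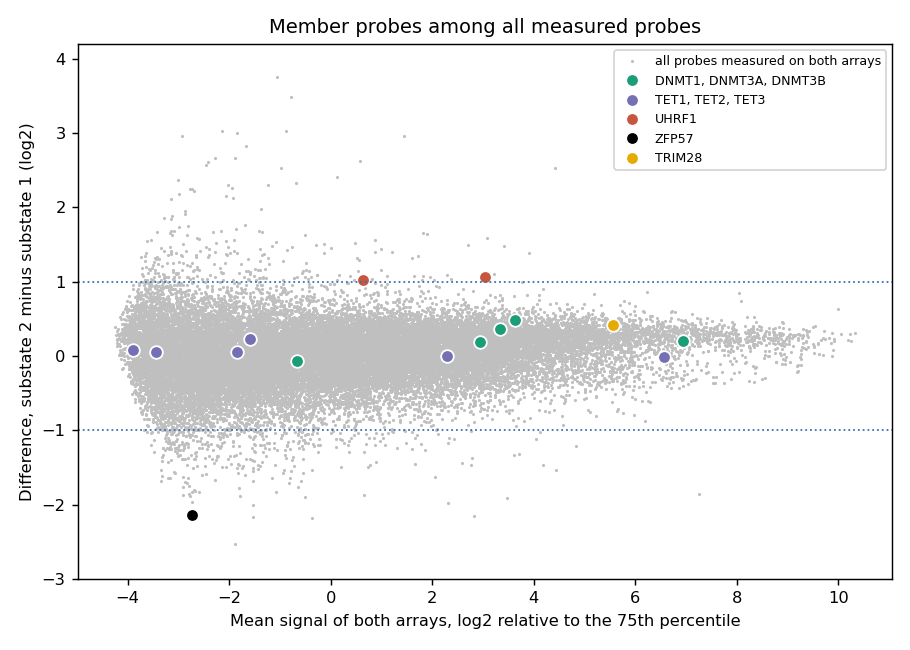
Difference in log2 signal, substate 2 minus substate 1 (vertical axis), against the mean log2 signal relative to the 75th percentile (horizontal axis) for 29883 probes measured on both arrays (grey) and for the member probes (coloured by role); dotted lines mark 2-fold, and 1 probe outside the vertical axis is not drawn. ZFP57 sits at the lower edge among dim probes, the UHRF1 probes lie just above the 2-fold line, and the other members lie within the body of the probes.

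Further genes of the pathway were read from lists chosen for function. In the lists of readers, of demethylation partners and of methyl donor synthesis, 0 genes passed 2-fold. Over all measured genes, 0.931% were 2-fold higher, 1.07% were 2-fold lower and 59.8% were above 0. Among 11 methylation readers, 10 were measured on both arrays, with a median of 0.03 and 6 above 0 (60.0%). MBD2 and MBD3, which belong to alternative forms of the NuRD complex, differed by 0.38 ± 0.17 and 0.31 ± 0.20, MBD1 by 0.15 ± 0.13 and MBD6 by -0.09 ± 0.15. The probes of MBD2 lay apart, at 0.05 and 0.72.

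The list of demethylation partners and base excision genes had a higher median than the members. Of 16 genes, 15 were measured, with a median of 0.40 and 11 above 0 (73.3%). Over all measured genes the median was 0.08 and 59.8% were above 0. NEIL2, a DNA glycosylase, differed by 0.58 ± 0.21, IDH2, which makes the TET cofactor 2-oxoglutarate in mitochondria, by 0.58 ± 0.20, and CXXC5, a CXXC zinc finger protein, by 0.53 ± 0.20. The thymine DNA glycosylase TDG, which excises oxidised methylcytosine, differed by 0.21 ± 0.14, and OGT, the TET-binding O-GlcNAc transferase, by -0.42 ± 0.20. Both were named after their values were seen. GADD45B, a stress-induced gene, was the lowest, with a signal of 608 in substate 1 and 272 in substate 2 and differed by -0.98 ± 0.21, just inside 2-fold.

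Methyl donor synthesis had a median of 0.10 over 10 genes measured, 6 of them above 0 (60.0%, against 59.8% of all measured genes). SHMT1, of the folate cycle, differed by 0.59 ± 0.14, MAT2B, the regulatory subunit of methionine adenosyltransferase, by 0.49 ± 0.14, MTR, methionine synthase, by -0.38 ± 0.13, and AHCY, which clears S-adenosylhomocysteine, by 0.28 ± 0.20.

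**Figure D4:**
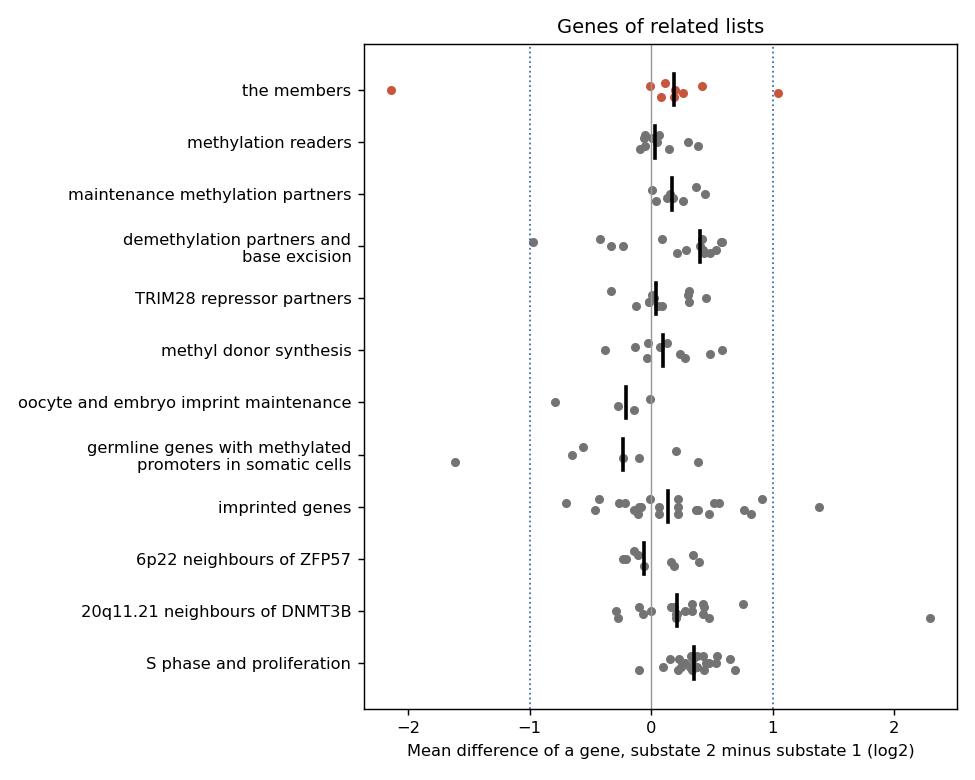
Mean difference per gene, substate 2 minus substate 1 (log2, horizontal axis), for the 9 measured members (coloured) and for the genes of related lists (grey), 1 point per gene measured on both arrays, with black bars for the medians and dotted lines at 2-fold. Among the members ZFP57, chosen for its fall, and UHRF1 lie past the 2-fold lines, and the S phase list lies to the right of 0 but for 1 gene.

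Imprinted genes, for some of which ZFP57 protects the methylation, did not move as a group. Of 27, 24 were measured on both arrays, with a median of 0.14. Of these, 14 were above 0 (58.3%, against 59.8% of all measured genes). Past 2-fold lay 1 upward (0.931% of all measured genes) and 0 downward (1.07%). NNAT, a neuronatin proteolipid, was 2.61-fold higher (1.39 ± 0.20), and CDKN1C and H19, of the 11p15 cluster, differed by 0.82 ± 0.20 and 0.76 ± 0.17. The mean of DLK1, 0.92, came from probes at 0.15 and 1.69. The lowest gene measured on both arrays was L3MBTL1 (-0.70 ± 0.15, with probes at -0.82 and -0.58), named after its value was seen. The loci known for loss of methylation in carriers of ZFP57 mutations were named after their values were seen. PLAGL1 was measured in substate 1 only, with a signal of 20 against 10.3, at least 1.17-fold lower in substate 2. PEG3 differed by -0.46 ± 0.17, with probes at -0.50 and -0.43, and GRB10 by 0.06 ± 0.14. ZIM2, which shares its locus with PEG3, was measured in substate 1 only and was at least 1.77-fold lower. These bounds set the dim array at its lowest signal above background or at the probe's own signal, whichever was higher.

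The letters TGCCGC are the hexamer that ZFP57 binds when its CpG is methylated. On either strand they were found in 21 of 44 promoters of imprinted genes (47.7%), against 16.7% of all promoters of this length. The 44 promoters belong to 17 genes, so some genes were counted more than once. By gene, 13 of these 17 held the letters, against 5319 of 27305 genes over all promoters. The 27305 genes had 35116 promoters, fewer per gene than the imprinted genes had, so an imprinted gene had more chances to hold the letters. The letters were also in 7 of the 19 member promoters (36.8%), in 4 of 8 genes. CpG content was not matched in these counts. Whether the start regions overlap imprinting control regions was not tested. The promoter of ZFP57 itself does not hold these letters.

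Genes that depend on promoter methylation for silence, or that guard imprints in the oocyte, were mostly dim. Of 19 germline genes, 10 were near background on both arrays, among them DDX4, MAEL and SYCP3 (named after their values were seen), and 7 were measured on both. The median of these 7 was -0.23, 2 were above 0, 0 were 2-fold higher and 1 was 2-fold lower, beside 59.8% above 0, 0.931% higher and 1.07% lower over all measured genes. The lower gene was DAZL, an RNA-binding protein of germ cells, with a signal of 55.1 in substate 1 and 15.8 in substate 2 and differed by -1.61 ± 0.35 on 1 probe. TDRD6 differed by -0.65 ± 0.23, TEX14 by -0.56 ± 0.31 and RPL10L by 0.38 ± 0.20. RPL10L was by far the brightest of the 7, with a signal of 27900 in substate 1 and 31900 in substate 2. Whether its probe also reads other transcripts was not tested. When probes near background were included, the median of the list was 0.20.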

How the data were processed

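RNA of H9 cells in either substate was hybridised to 1 single-colour (Cy3) Agilent array each. The authors deposited the scanner output, an intensity and its error per spot, made with Feature Extraction 11.5.1.1 (protocol GE1_1105_Oct12, design on hg19), which subtracts local background and spatial trends and flags spots well above background. They also deposited log2 values from GeneSpring, each array shifted by its 75th percentile with signals under 1 set to 1. These differed from the values computed here by a constant per array.

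Here, outlier spots were left out, log2 was taken and the 75th percentile over 58201 non-control probes was subtracted. Gene values are means over probes well above background on both arrays. Probes were named through RefSeq accessions of GRCh38.p14 (31104 probes, 53.4%). Of the genes measured on 1 array, bounds are given for POU3F2, SOX1, MAS1L, PLAGL1 and ZIM2. Alternatives tried were loess (span 0.3), quantile normalisation, median centring, normexp (on the median spot signal, since mean signals were not in the files used here), kept outliers, the deposited log2 values, other bases of the Z-score, near-background probes included and medians over probes. R 4.3.3 with limma 3.58.1 and Python 3.11.15 were used, and the calculation of differences and calls was tested on simulated data. No test between substates was possible, and precision is limited by how few arrays there are.

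The members and lists were chosen with earlier results of these data known. All probes of the 10 members are given. Of each other list the up to 4 genes with the largest absolute difference are named, with exceptions stated, and of the zinc finger genes the 3 nearest to ZFP57.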

Additional observations from a re-analysis of the deposited data

How the results depend on the processing

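No paired analysis was possible because only 1 array was hybridised for either substate. Leaving out a replicate was not possible for the same reason. ZFP57 stayed lower and UHRF1 higher under every scaling, background correction and source of values that was run. Normexp correction, which adds an offset of 50 and so shrinks the differences of dim probes by construction, moved ZFP57 most, to -0.77, with a Z-score of -3.71 and rank 4 among the zinc finger genes. It gave 0 member probes 2-fold higher and 0 lower, and 3 above the upper Z-score limit (both UHRF1 probes and 1 DNMT3A probe). The member probes 2-fold higher were 1 after quantile normalisation and 0 after loess centring. With the Z-score computed over probes measured on both arrays, and with an SD from the median absolute deviation, 2 member probes (UHRF1) were above the limits and 2 (ZFP57 and the near-background DNMT3L) below. With near-background probes included, the list medians became 0.20 for germline genes, 1.03 for neural ectoderm and 0.21 for fibroblast markers. Apart from these, 135 list, count and median values and 158 values of single members moved by less than their scanner error or by no more than 1.5 times, and only TRIM28 (0.21 under normexp) and ZFP57 among the single members moved further. Naming probes by a gene name column was not run, as the scanner files hold none. Single arrays, and the dim signal of ZFP57 in substate 2, of TET3 and of DNMT3L, limit what can be read.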

Other observations

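Genes of the oocyte and embryo complex that maintains imprints had a median of -0.21 over the 4 measured on both arrays, beside 0.08 over all measured genes, of which 59.8% were above 0. None passed 2-fold (0.931% of all measured genes were higher and 1.07% lower), and only OOEP differed by more than its scanner error. OOEP, a component of the subcortical maternal complex, had a signal of 62.2 in substate 1 and 31.6 in substate 2, and the difference was -0.79 ± 0.26. NLRP7 differed by -0.27 ± 0.35, NLRP2 by -0.14 ± 0.20 and TLE6 by -0.01 ± 0.21. KHDC3L, with a signal of 16.0 in substate 1 and 3.60 in substate 2, and PADI6, with 16.2 and 12.6, were above background in substate 1 only, and no fold could be bounded above 1. DPPA3, which opposes UHRF1 in the oocyte, was near background on both arrays.

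The member promoters differed in CpG content. It ran from 3 CpG sites in the DNMT3B start region of the table to 46 in a start region of UHRF1 and of DNMT3A, beside 20 in ZFP57. The start regions of TET1 had 6, 10 and 11.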
